A study of Mus musculus with 8 samples.

Results

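The 3 arrays described here carried RNA from mouse leukaemia stem cells with a control hairpin against luciferase (Luc control), and were chosen by their titles from the 8 arrays of the series. The cells came from C57BL/6 Actin-dsRed mice with leukaemia driven by the MLL-AF9 fusion oncogene. They were sorted from the bone marrow of quaternary transplant recipients by low Hoechst stain, dsRed fluorescence, high c-kit, the presence of CD34 and a high level of Fc gamma receptor II. The series examined knockdown of Itgb3, and the hairpin arrays were not compared here. The labels do not say whether the 3 arrays came from separate mice, so the spread between them may be technical, and no untransformed marrow cells were available to set beside them.

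MLL-AF9 joins the DNA-binding part of a histone methyltransferase to a subunit of a transcription elongation complex, and is known to keep genes of the HoxA cluster and Meis1 active. Leukaemias made by this fusion in mice resemble granulocyte and monocyte progenitors, and their leukaemia stem cells carry surface markers of those progenitors. Such cells normally make the proteases of primary granules before they mature into neutrophils or monocytes.

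Each array reported 45281 probes as an average bead signal on a linear scale, with a detection p-value that compares the probe with background. A probe was counted as detected below 0.05. Between 20.5% and 22.9% of probes were detected on an array, the median signal lay between 95.1 and 102, and the highest signal was 17173, 16275 and 17411 on replicates 1, 2 and 3. In this report a level is a log2 value after background correction and quantile normalization of the 3 arrays, given as mean ± SD (n = 3), and the number of arrays limits its precision. Levels of dim probes depend on the background correction. Without it, the level of the undetected gene Itgb3 was 6.57 in place of 4.28. The brightness of a probe also depends on the probe itself, so the order of levels describes signal and not numbers of RNA molecules. In a bulk sample, fewer cells of a type and less RNA per cell cannot be told apart.

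Of the probes, 7011 (15.5%) were detected on all 3 arrays and 31292 (69.1%) on none. A further 1856 were detected on 2 arrays and 5122 on 1. The detected probes had a median level of 6.10, and 90% of them lay between 4.88 and 9.62. The undetected probes had a median level of 4.34, with the 95th percentile at 4.49. On the signal scale the medians were 151 and 97.3. Nearly all of the overlap fell in a narrow band of signal. Of the 12822 probes with a mean signal between 100 and 110, 1.16% were detected on all 3 arrays, against 72.2% of the 1765 probes between 110 and 120 and all 1576 probes between 200 and 500.

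**Figure D1:**
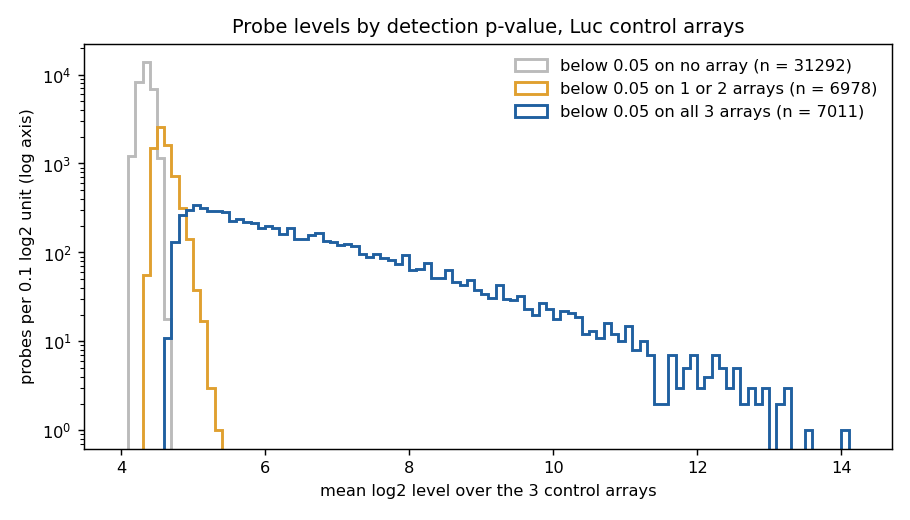
Number of probes (log axis) by mean log2 level over the 3 Luc control arrays, for the 31292 probes detected on no array, the 6978 detected on 1 or 2 arrays and the 7011 detected on all 3. Undetected probes form a narrow peak at a median of 4.34, and detected probes run from just above it to 14.04.

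Around the threshold the classes were separated by little signal, and the cutoff differed by array. The lowest detected signal was 109.7, 108.2 and 102.1 on replicates 1, 2 and 3. Ncaph, a condensin subunit, had a detection p-value of 0, 0.0491 and 0.00748 and was counted as detected on all 3 arrays. Klf16, a zinc finger transcription factor, had values of 0.0331, 0.0310 and 0.0502 and was not. Their signals were 120, 108 and 109 for Ncaph, and 111, 109 and 102 for Klf16. Hoxd11 also missed the threshold on replicate 3 alone, at 0.0502.

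By gene symbol, 4779 of 19057 (25.1%) had a probe detected on all 3 arrays, and 10458 (54.9%) had no probe detected on any array. Protein-coding genes were detected at 25.7% (4731 of 18393), and long non-coding RNAs at 5.28% (22 of 417). Levels of 10 or more were reached by 173 gene symbols, and levels of 12 or more by 24.

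Ribosomal proteins were the largest group among the brightest named genes. Of the 30 gene symbols of highest level, 10 were cytosolic ribosomal proteins of the list used below, 11 with Rpl36al, which that list does not hold. Another 4 were H2A histones and 2 were tubulins. The lists of respiratory chain, oxidant defence, primary granule, translation factor and cytosolic chaperone genes each gave 1. So did those of actin cytoskeleton, splicing and hnRNP, and monocyte and macrophage genes. For 26 of the 29 neighbouring pairs in the order, the ranges of the 3 arrays overlapped, so the order within the group was mostly not resolved.

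Rplp1, an acidic protein of the ribosomal stalk, gave signals of 17173, 16275 and 17411. It was the brightest probe on every array, so quantile normalization gave it the same level of 14.04 each time and its SD of 0 carries no information. Gpx1, a selenium-dependent glutathione peroxidase, gave 9360, 8771 and 10296 (13.21 ± 0.04). Rps2, a protein of the small ribosomal subunit, gave 9207, 9379 and 10196 (13.21 ± 0.04). Gpx1 and Rps2 had overlapping ranges and the same mean level and SD. Quantile normalization gave both genes the same values in a different order of arrays. For such bright probes the SD of the level thus depends on ranks. The Gpx1 signals ran from 8771 to 10296, while its level range was 1.05-fold. Eef1a1, which brings aminoacyl-tRNA to the ribosome, gave 9159, 8370 and 10319 (13.15 ± 0.08). H2ac24, a replication-dependent histone H2A gene, gave 7619, 7698 and 8720 (12.95 ± 0.03). The H2A genes are near-identical in sequence, so the share of each copy in these signals is uncertain. The same holds for ribosomal protein genes, which have many processed pseudogenes.

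Atp5b, the catalytic beta subunit of the mitochondrial ATP synthase, gave signals of 6153, 7002 and 7660 (12.72 ± 0.09). Mif, a secreted cytokine that inhibits macrophage migration, gave 5125, 5859 and 6729 (12.52 ± 0.04). Both were lowest on replicate 1 and highest on replicate 3 on the signal scale. Prtn3, which encodes the granule protease proteinase 3, gave 6093, 5444 and 6707 (12.52 ± 0.09), and was lowest on replicate 2. It was the only gene of the primary granule list among the 30. Rpl27, a protein of the large ribosomal subunit, was the least reproducible of the 30, with signals of 5516, 3757 and 6421 (12.28 ± 0.36).

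The remaining genes of the 30 were Rps9, Rps4x, Rpl38, Rps29, Rpl9, Rpl41 and Rps26 of the ribosome, the histones H2ac10, H2ac20 and H2ac13, the tubulins Tuba1b and Tubb5, and Ppia, Rpl36al, Dbi, Ybx1, Mt1, Itm2b, Actb, Hnrnpc and Cyba. Ppia encodes the prolyl isomerase cyclophilin A, Dbi an acyl-CoA-binding protein, Mt1 a metallothionein and Hnrnpc a nuclear RNA-binding protein. Mt1 had signals of 3174, 4184 and 4854 (11.96 ± 0.17). Cyba, a membrane subunit of the phagocyte NADPH oxidase, gave 3266, 4055 and 4418 (11.89 ± 0.06). Names were lacking for many bright probes: 12 of the 30 brightest probes (40%) carried no symbol, against 22.9% of all probes, and these were left out of the order.

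**Figure D2:**
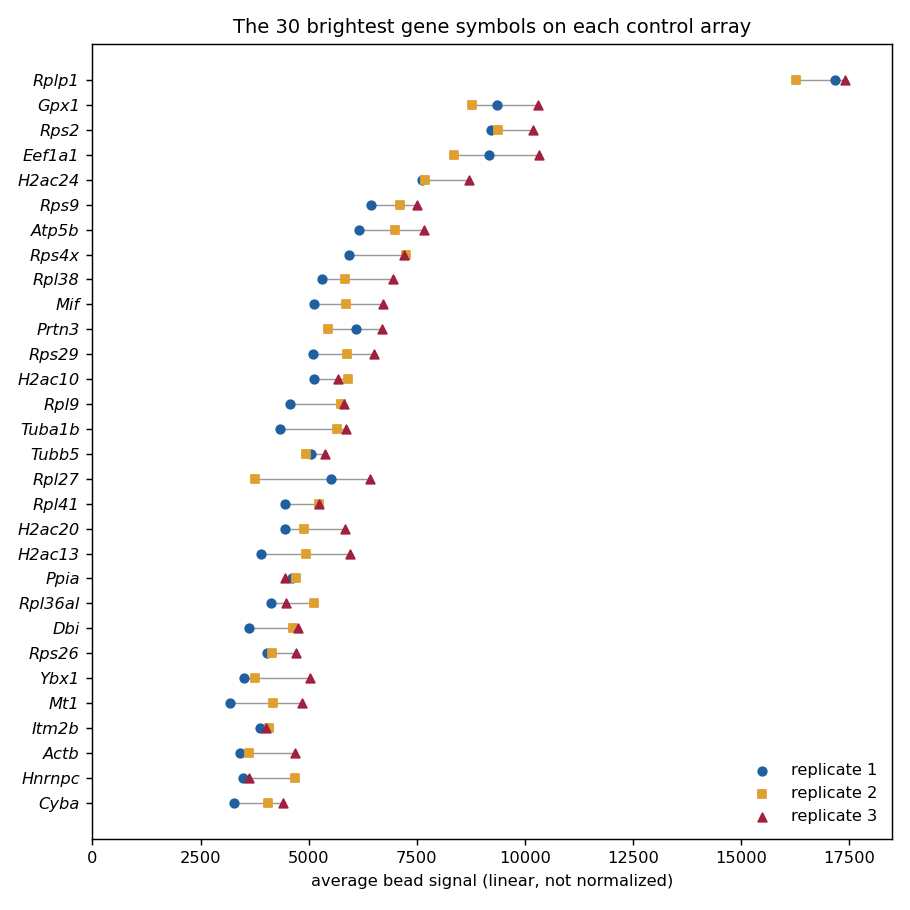
Average bead signal (linear, not normalized) of the 30 gene symbols of highest level on each of the 3 Luc control arrays, ordered by mean level, with a line over the range. Rplp1 stands apart at 16275 to 17411, and for most other genes the range overlaps that of its neighbours.

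RefSeq promoter sequence (GRCm38.p6) is shown for genes of different levels, namely for 2 of the brightest genes (Gpx1 and Mif), 4 primary granule genes (Prtn3, Elane, Ctsg and Mpo), Hoxa9 as a target of the fusion, and Alb, the liver albumin gene, which was not detected on any array. Each line gives the 150 bases before the annotated start, 5′ to 3′ on the strand of the gene, with matches to any of 7 motifs in capitals.
Gpx1 (chr9:108338930-108339079, plus strand): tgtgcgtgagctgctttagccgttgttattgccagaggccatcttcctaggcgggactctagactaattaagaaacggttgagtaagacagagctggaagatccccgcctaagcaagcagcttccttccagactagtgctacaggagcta
Mif (chr10:75860278-75860427, minus strand): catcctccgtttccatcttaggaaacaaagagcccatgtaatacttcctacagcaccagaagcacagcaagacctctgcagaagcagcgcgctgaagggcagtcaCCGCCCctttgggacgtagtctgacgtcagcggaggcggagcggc
Prtn3 (chr10:79879517-79879666, plus strand): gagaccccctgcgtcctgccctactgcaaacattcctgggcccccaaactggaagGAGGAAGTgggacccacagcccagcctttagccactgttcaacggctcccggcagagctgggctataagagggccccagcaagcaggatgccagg
Elane (chr10:79886162-79886311, plus strand): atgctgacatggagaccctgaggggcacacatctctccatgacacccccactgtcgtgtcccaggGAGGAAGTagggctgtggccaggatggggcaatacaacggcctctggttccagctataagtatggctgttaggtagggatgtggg
Ctsg (chr14:56102575-56102724, minus strand): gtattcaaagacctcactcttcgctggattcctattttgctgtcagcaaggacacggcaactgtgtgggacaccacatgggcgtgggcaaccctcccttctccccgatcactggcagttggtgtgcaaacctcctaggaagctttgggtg
Mpo (chr11:87793634-87793783, plus strand): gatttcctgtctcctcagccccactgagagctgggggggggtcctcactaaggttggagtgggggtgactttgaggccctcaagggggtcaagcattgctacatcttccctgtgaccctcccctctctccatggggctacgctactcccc
Hoxa9 (chr6:52227371-52227520, minus strand): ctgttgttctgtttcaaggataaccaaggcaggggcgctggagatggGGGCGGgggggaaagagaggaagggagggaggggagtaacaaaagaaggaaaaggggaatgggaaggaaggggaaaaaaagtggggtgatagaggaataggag
Alb (chr5:90460720-90460869, plus strand): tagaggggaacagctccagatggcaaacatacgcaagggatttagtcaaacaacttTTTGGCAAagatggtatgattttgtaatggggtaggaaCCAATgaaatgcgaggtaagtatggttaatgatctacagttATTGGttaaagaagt

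The 7 motifs were TATAAA (the TATA box), CCAAT (the CCAAT box), GGGCGG (the GC box), CCGGAAG and GAGGAAGT (both of ETS factors), TTGCNNAA (of C/EBP factors) and a form of the interferon-stimulated response element. They were searched on both strands in the window from 250 bases before to 50 bases after the start, and none of them contains another. Their shares of all 27025 promoters were 14.2%, 37.9%, 35.9%, 9.12%, 3.28%, 10.8% and 0.289%, in that order. GAGGAAGT is a form of the sequence bound by the ETS family factor PU.1. It occurred in 418 of 14872 protein-coding genes with a probe and a promoter entry (2.81%). Of the 17 primary granule genes with an entry it occurred in 4, Ctsc, Elane, Mpo and Prtn3. The match of Mpo lay outside the stretch printed above, and Ctsg had none in the window. CCAAT occurred in 31 of 36 G2/M genes and 55 of 72 histone genes, against 38.6% of protein-coding genes. TATAAA occurred in 34 of the 72 histone genes, against 12.6%. CCGGAAG occurred in 22 of 51 cytosolic ribosomal protein genes, against 12.8%. These 5 counts were picked from 210 pairs of list and motif after all of them had been seen. A match describes letters in the window and is not evidence of a bound site.

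Of 10 genes for markers of the sort and of stem and progenitor cells, 3 (30%) were detected on all 3 arrays, near the 25.1% of all gene symbols. Kit, the receptor for stem cell factor, gave signals of 177, 215 and 189 (6.79 ± 0.20) with 1 of its 3 probes. Fcgr2b, the Fc gamma receptor II gene, gave 181, 202 and 197 (6.79 ± 0.07) with 1 of its 5 probes detected on all 3. These probes of both genes had a detection p-value of 0 on every array. Fcgr3, another low-affinity Fc gamma receptor, gave 138, 161 and 170 (6.18 ± 0.27). The single probe of Cd34, a sialomucin by which the cells were sorted, was not detected, with signals of 98.1, 102 and 98.1. Il7r, Flt3 and Abcg2 were also detected on no array.

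Primary granule genes had the highest share of detected genes among the 50 lists (89.5%), next to actin cytoskeleton genes (88.9%). Of 19 genes 17 were detected on all 3 arrays, with a median level of 7.67, against 25.1% of gene symbols and a median of 4.46 over all of them. Elane, neutrophil elastase, gave signals of 3362, 3231 and 3878 (11.73 ± 0.13). Ctsg, cathepsin G, gave 2695, 2967 and 3990 (11.60 ± 0.12). Mpo, myeloperoxidase, gave 861, 972 and 1373 (9.91 ± 0.23), and all 4 of its probes were detected. With Prtn3, whose values are given above, these were the brightest members. Clec12a, an inhibitory lectin receptor, was the 1 gene of the list detected on no array.

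Of 26 genes of later granules and mature neutrophils, 10 (38.5%) were detected on all 3 arrays and 10 on none, against 25.1% and 54.9% of all gene symbols. Stfa1, a stefin of the cystatin family with close copies in the genome, gave signals of 2923, 3275 and 3681 (11.65 ± 0.02). Hp, haptoglobin, gave 2259, 1871 and 2500 (11.05 ± 0.19), and S100a8, a subunit of calprotectin, gave 1521, 1978 and 1931 (10.75 ± 0.14). Pglyrp1, a bactericidal peptidoglycan recognition protein, had a level of 8.34 ± 0.12. The secondary granule protein Ltf and the proteases Mmp8 and Mmp9 were detected on no array, nor was the formyl peptide receptor Fpr2.

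Of 39 monocyte and macrophage genes, 13 (33.3%) were detected on all 3 arrays and 19 (48.7%) on none, near the 25.1% and 54.9% of all gene symbols. After Cyba, the brightest were Coro1a, an actin-binding protein of leukocytes (11.20 ± 0.12), Ly6c1, a surface antigen with a close paralogue (9.49 ± 0.13), and Psap, a lysosomal sphingolipid activator (9.02 ± 0.07). Cyba and Coro1a are used by granulocytes as well as by monocytes. Ccr2, the receptor for the chemokine CCL2, was detected on no array, as were Fcgr1, Mpeg1 and Ctss.

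Of 27 MLL-AF9 and HoxA programme genes, 13 (48.1%) were detected on all 3 arrays, with a median level of 4.90, against 25.1% and a median of 4.46 over all gene symbols. Lmo2, a LIM-domain protein of haematopoietic transcription complexes, was the brightest, with signals of 1010, 990 and 1101 (9.90 ± 0.08). Hoxa5 gave 294, 339 and 347 (7.93 ± 0.06) and Hoxa7 gave 208, 196 and 277 (7.13 ± 0.34). Mylk, myosin light chain kinase, had a level of 7.46 ± 0.22. Hoxa9 gave 169, 178 and 193 (6.59 ± 0.09) and Meis1, its cofactor, gave 167, 190 and 195 (6.65 ± 0.12). Each of these had 2 of 3 probes detected on all 3 arrays and the third on none. Hoxa3, Hoxa6, Hoxa10 and Hoxa11 were detected on no array. Of 28 genes of the HoxB, HoxC and HoxD clusters, 1 was detected on all 3 arrays, Hoxd13, at 113, 113 and 104 (4.82 ± 0.09). That count became 2 without replicate 1 and 2 without replicate 3. Of the 28 genes 17 (60.7%) were detected on no array, near the 54.9% of all gene symbols.

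Of 29 myeloid transcription factors, 10 (34.5%) were detected on all 3 arrays, against 25.1% of all gene symbols. Cebpb, a basic leucine zipper factor of myeloid cells, gave signals of 475, 610 and 597 (8.90 ± 0.16). Nfe2, known for its role in megakaryocytes and erythroid cells, had a level of 8.82 ± 0.09. Cebpe, which drives late granulocyte genes, had 8.78 ± 0.08 with all 4 of its probes detected, and Gfi1, a repressor needed for granulocyte formation, had 7.77 ± 0.24. The single probe of Cebpa, the early granulocyte factor, was detected on no array, nor were Irf4, Klf4 and Egr2. Spi1, which encodes PU.1, missed the threshold on replicate 1 with signals of 106, 123 and 104 (4.84 ± 0.39). Myb, a progenitor factor, missed it on replicate 2 with signals of 112, 107 and 113 (4.80 ± 0.22).

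Of 18 genes known from haematopoietic stem cells, 3 (16.7%) were detected on all 3 arrays, against 25.1% of all gene symbols, and 11 (61.1%) on none, against 54.9%. They were Nupr1 (5.86 ± 0.14), Cdkn1c, a cyclin-dependent kinase inhibitor (5.84 ± 0.12), and Gata2 (5.35 ± 0.09). Hlf, Mllt3, Procr and Tek were among those detected on no array.

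Most markers of erythroid, B, NK and megakaryocyte cells were detected on no array, as were 54.9% of all gene symbols. The share on none was 85.7% for erythroid, 88.2% for B cell and 86.7% for NK and cytotoxic genes, and 60% for megakaryocyte and platelet genes, which is near that of all genes. Among lists described below, it was 86.7% for mast cell and basophil and 61.1% for T cell genes. Dendritic cell and antigen presentation genes had 50%, also near that of all genes, and eosinophil genes 40% (4 of 10). Over all gene symbols, 25.1% were detected on all 3 arrays. In the erythroid list 1 of 14 genes (7.14%) was detected on all 3. This was Tfrc, the transferrin receptor of all dividing cells, at 1098, 1189 and 1043 (10.01 ± 0.22). The globin genes Hba-a1, Hbb-b2 and Hbb-bt and the haem enzyme gene Alas2 were detected on none. No megakaryocyte or platelet gene of 15 was detected on all 3 arrays, and 1 was without replicate 3. Pf4, Ppbp, Itga2b and Itgb3 were among the 9 on none. Of 17 B cell genes 1 was detected, Cd79b at 5.25 ± 0.14, while Ms4a1, Pax5, Ebf1 and Vpreb1 were not. Of 15 NK and cytotoxic genes 1 was detected, the pore-forming protein gene Prf1, at 6.06 ± 0.47. The summed linear level of each list, on the log2 scale, ranged from 10.13 to 10.44 over the arrays for erythroid genes, from 8.34 to 8.38 for megakaryocyte genes, from 8.49 to 8.63 for B cell genes and from 8.37 to 8.55 for NK genes.

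A few genes of other lineages were detected on all 3 arrays while other markers of the same lists were detected on none. Of 18 T cell genes 3 (16.7%) were detected on all 3 arrays, against 25.1% of all gene symbols. Cd8b1, the beta chain of the CD8 co-receptor, gave signals of 798, 1139 and 1159 (9.86 ± 0.22) with 1 of its 3 probes, and was lowest on replicate 1. Foxp3 had a level of 6.31 ± 0.31 and Bcl11b 5.25 ± 0.38, each with 1 of 4 probes. Cd3d, Cd3g, Cd4 and Cd8a were detected on no array, and the summed T cell level ranged from 10.26 to 10.53. Hdc, the histamine-forming enzyme, gave 357, 338 and 378 (8.11 ± 0.15) with both probes and was the 1 detected gene of 15 in the mast cell and basophil list, where Cpa3, Mcpt1, Mcpt4 and Mcpt8 were at background. Prg2, eosinophil major basic protein, gave 218, 222 and 217 (7.10 ± 0.13). With Epx, at a level of only 4.77, it made 2 of 10 eosinophil genes. Another 4 were detected on 1 or 2 arrays, and Prg3, Ear3, Siglecf and Il5ra (40%) on none.

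Of 22 stromal and endothelial genes 4 (18.2%) were detected on all 3 arrays, against 25.1% of all gene symbols. The brightest were the intermediate filament gene Vim (6.78 ± 0.06), which leukocytes also use, and Acta2 (6.12 ± 0.23) with 1 of 6 probes. Cdh5, Tie1, Emcn and Lepr were detected on none. Of 20 dendritic cell and antigen presentation genes 4 (20%) were detected, led by the class II loading factor H2-DMa (8.05 ± 0.15), while H2-Aa and H2-Eb1 were not.

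**Figure D3:**
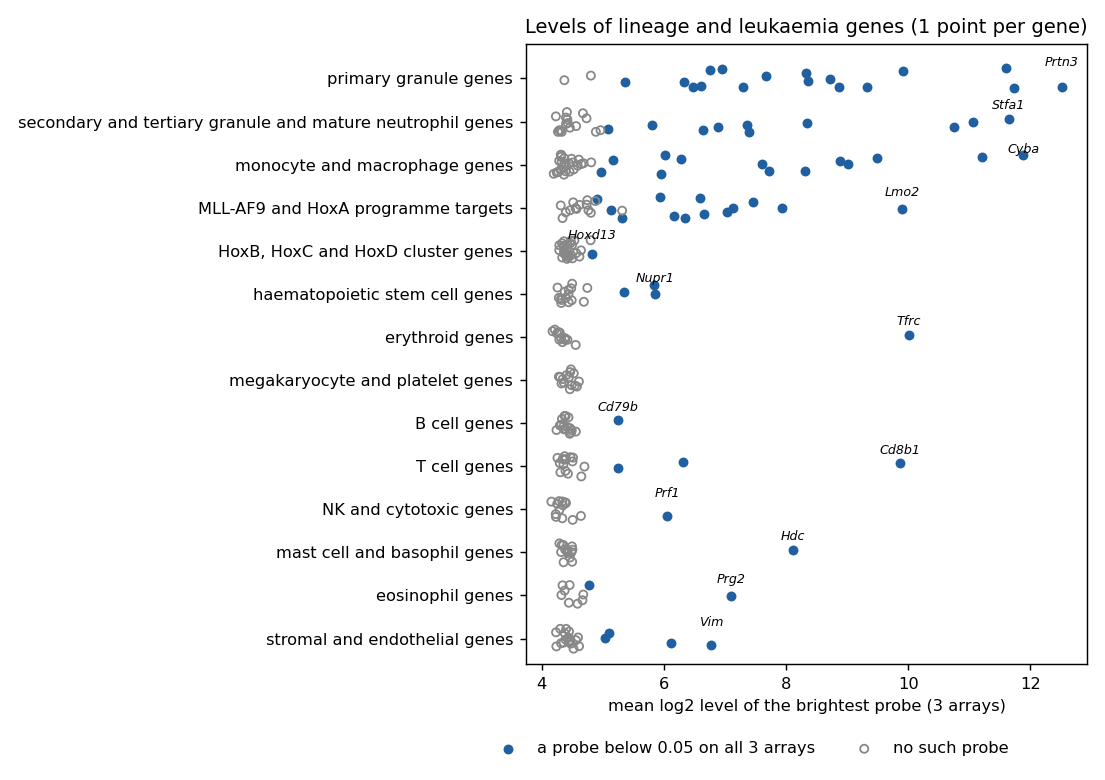
Mean log2 level of the brightest probe of each gene in 14 lineage and leukaemia lists, with filled points for genes with a probe detected on all 3 arrays and open points for the others. The primary granule list reaches 12.52 with 17 of 19 points filled, and the megakaryocyte list has no filled point.

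Itgb3, the integrin beta 3 subunit and the gene targeted elsewhere in the series, had a single probe, which was not detected in these control cells, with signals of 97.5, 98.4 and 88.5 and detection p-values of 0.671, 0.546 and 0.815. Of 25 integrin subunits 1 was detected on all 3 arrays, Itga5 (5.16 ± 0.27), a count that became 2 without replicate 1 and 2 without replicate 3. Of 33 integrin signalling genes 16 (48.5%) were detected, against 25.1% of all gene symbols. Zyx, a focal adhesion LIM protein, gave 1051, 1015 and 1183 (9.98 ± 0.09), and Cd47, an integrin-associated surface protein, had a level of 9.70 ± 0.07. Plcg2, a phospholipase, and Ilk, an adhesion pseudokinase, had levels of 7.94 ± 0.06 and 7.90 ± 0.07. The probe of the tyrosine kinase Syk was not detected, at 96.5, 93.3 and 85.8, nor were those of Src, Tln1 and Vasp. Of 30 cytokine and growth factor receptors 8 (26.7%) were detected, a share near that of all genes, and 14 were without replicate 1. Tgfbr1 was the brightest of them (7.14 ± 0.10).

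Lists of the protein synthesis machinery were detected well above the 25.1% of all gene symbols. Cytosolic ribosomal proteins were detected for 53 of 62 genes, with a median level of 9.67, and 23 of the 100 brightest gene symbols were in this list. Translation factors were detected for 27 of 36, mitochondrial ribosomal proteins for 58 of 73, and endoplasmic reticulum folding genes for 20 of 26, led by P4hb, a disulfide isomerase (11.34 ± 0.06). Proteasome subunits were detected for 28 of 39 and splicing and hnRNP genes for 34 of 48. Actin cytoskeleton genes were detected for 24 of 27, with Arpc5, a subunit of the actin-nucleating complex, at 10.79 ± 0.14.

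Among genes of energy supply, 62 of 79 respiratory chain and ATP synthase genes were detected on all 3 arrays, with a median level of 8.12, against 25.1% and a median of 4.46 over all gene symbols. After Atp5b the brightest were Atp5g3, Cox6b1 and Cox6a1, at levels of 11.32 ± 0.25, 11.26 ± 0.11 and 11.15 ± 0.21. Glycolysis and lactate genes were detected for 13 of 25, with a median level of 4.93. Another 9 (36%) were detected on none, against 54.9% of all gene symbols. Among these were the tissue-restricted forms Gapdhs, Pgam2, Eno2 and Pklr. Tpi1 gave 1995, 2220 and 3069 (11.17 ± 0.19), and Ldha 1903, 2144 and 2289 (10.99 ± 0.03). Of 26 oxidant defence genes 18 were detected, with the ferritin heavy chain gene Fth1 after Gpx1, at signals of 2004, 1892 and 2505. Of 22 cholesterol synthesis genes 11 were detected, led by Fdps, farnesyl diphosphate synthase (10.98 ± 0.05).

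Of 48 DNA replication and nucleotide synthesis genes 38 (79.2%) were detected on all 3 arrays, against 25.1% of all gene symbols, with the replicative helicase subunit Mcm4 at 766, 851 and 931 (9.58 ± 0.02). Of 42 G2/M genes 24 (57.1%) were detected, led by the centromeric histone gene Cenpa (9.63 ± 0.19), with the mitotic kinase gene Aurka at 8.94 ± 0.11 and Birc5, survivin, at 8.91 ± 0.25. Histone genes were detected for 42 of 78 (53.8%). The cell cycle inhibitors Cdkn2a and Cdkn2b were detected on no array, while Cdkn1a (6.81 ± 0.08) and the p53 inhibitor gene Mdm2 (7.83 ± 0.14) were among 8 of 25 detected in their list (32%), a share near that of all genes. Of 45 chromatin modifiers and MLL complex genes 28 (62.2%) were detected, with the polycomb subunit Suz12 at 9.11 ± 0.12.

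Lists of response genes were detected at 17.4% to 30.8%, around the 25.1% of all gene symbols. Interferon response genes were detected for 8 of 34, with Ifitm2 at 9.36 ± 0.23, while Isg15, Ifit1 and Ifit3 were on none. NF-kB and inflammatory genes were detected for 7 of 27, led by the chemokine gene Ccl9 (8.73 ± 0.13), with Il1a, Il1b, Il6 and Il10 on none. Immediate early genes were detected for 4 of 23, and Fos, Fosb, Jun and Jund were on none. Heat shock and handling stress genes were detected for 4 of 13.

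Of 1241 olfactory and vomeronasal receptor genes, 3 (0.242%) were detected on all 3 arrays, against 25.1% of all gene symbols, at levels of 4.70 to 4.91, namely Olfr538, Olfr168 and Olfr560. That number was 14, 7 and 13 with replicate 1, 2 or 3 left out. None of 52 keratin and keratin-associated genes was detected on all 3. Of 51 genes of liver, muscle, brain, skin, eye and testis 2 were, Mbp (5.53 ± 0.21) and Cela1 (5.05 ± 0.25). No gene of 19 on the Y chromosome was detected on all 3 arrays, and Xist was, at 123, 151 and 146 (5.79 ± 0.38).

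**Figure D4:**
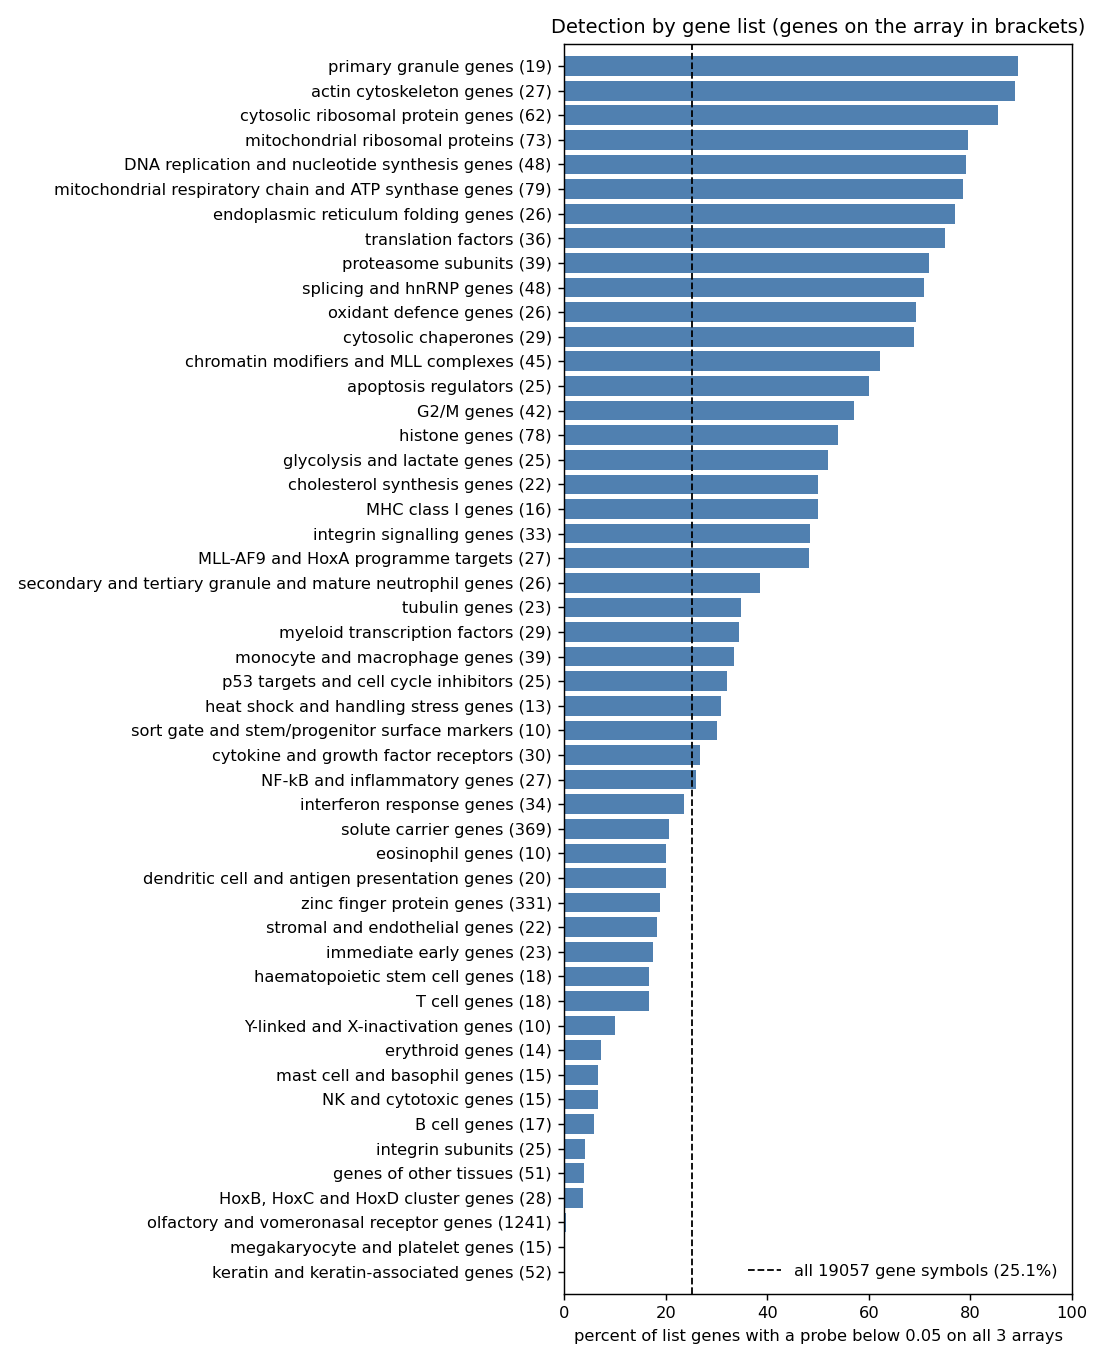
Percent of the genes of each of 50 lists with a probe detected on all 3 Luc control arrays, with the number of genes on the array in brackets and a dashed line at 25.1%, the share of all 19057 gene symbols. Primary granule, actin and ribosomal protein genes lie at the top and keratin, megakaryocyte and olfactory receptor genes at the bottom.

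A gene detected on no array was not thereby shown to be silent. Genes that all cells use were among them, including the ribosomal protein genes Rpsa, Rps23, Rps20, Rpl14 and Rpl6 and the endoplasmic reticulum chaperones Hspa5 and Canx. Rpsa gave signals of 98.4, 105 and 87.1, and Hspa5 gave 103, 101 and 96.8. Probes of the same gene often disagreed. Of 3032 genes with several probes and at least 1 detected on all 3 arrays, 2041 (67.3%) had another probe detected on none. Actb, cytoplasmic beta-actin, gave 3413, 3611 and 4688 with its brightest probe and 99.1, 104 and 95.8 with a dim one. Ybx1, a cold-shock domain protein, gave 3495, 3748 and 5043 with its brightest probe and 106, 102 and 99.1 with another. The same was seen for Gars, Rpl37, Wbp2, Rps24, Btf3, Atp5l, Arhgdib and Eif3i.

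Across the 7011 probes detected on all 3 arrays, Pearson's r of the level between pairs of arrays lay between 0.980 and 0.981, as a description over probes that share a library and are not independent. The median SD of their levels was 0.17, against 0.07 for probes detected on none, which span a narrow range of levels. Among detected probes it was 0.15 for levels from 4 to 5, 0.20 for levels from 5 to 6 and 0.12 above 10. The highest and lowest array differed by at most 1.5-fold for 86.3% of detected probes and by more than 2-fold for 55. Before normalization replicate 1 had the lowest signal for 48.4% of detected probes, and replicate 3 the highest for 43.5%.

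**Figure D5:**
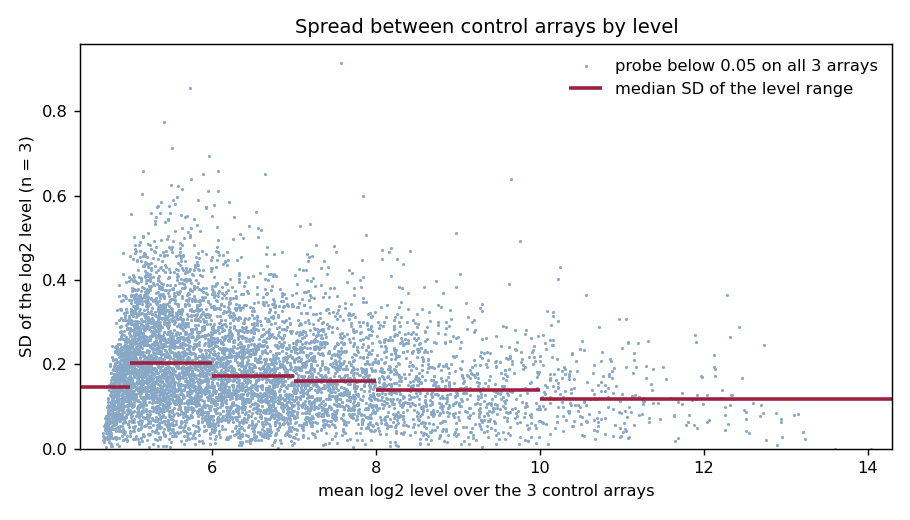
SD of the log2 level over the 3 Luc control arrays against its mean, 1 point per probe detected on all 3, with the median SD of each level range as a line. The median rises from 0.15 at levels of 4 to 5 to 0.20 at levels of 5 to 6, and then falls to 0.12 above 10.

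The 10 genes of largest range had levels of 5.43 to 7.57, around the median of 6.10 of detected probes. Gm5643, an annotated pseudogene, gave signals of 338, 177 and 368, a range of 3.15-fold on the level scale, and was lowest on replicate 2. Churc1, a zinc-binding protein, gave 111, 154 and 166 (2.98-fold) and Atp8b4, a phospholipid flippase, gave 151, 109 and 125 (2.92-fold). No array was the low one for all 3 genes. The others of the 10 were Ddx5, 2410002F23Rik, Cs, Slc25a37, Mzt1, Zfp362 and Mbtps1, with ranges of 2.22-fold to 2.61-fold. Of 8 mitochondrially encoded genes, 5 were detected on all 3 arrays. ND4, a subunit of complex I, gave 939, 1170 and 1710 (10.17 ± 0.31), COX2 gave 199, 268 and 357 and ATP6 gave 167, 221 and 292. Each of these was lowest on replicate 1 and highest on replicate 3. The order was not shared by all: CYTB, the brightest, gave 1716, 1612 and 2239 and was lowest on replicate 2. ND1 gave 439, 466 and 756, but its level was lowest on replicate 2 (8.62, 8.59 and 9.25).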

How the data were processed

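Signals were deposited by the authors as average bead intensity on a linear scale, not normalized, per the file headers, each with a detection p-value by a method that is not stated here. A second table deposited by the authors holds log2 values of unstated method and offset (Spearman 1 with the signals, median 6.61), used only as an alternative. Levels were computed from the 3 control arrays with neqc of limma 3.58.1 in R 4.3.3 (offset 16, controls inferred from the detection p-values, quantile normalization), which was tested on simulated data. The brightest probe by mean level stood for a gene. Of 45281 probes, 34885 had 1 symbol, 18 several and 10378 none here. No groups were compared and no test was made.

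Named genes were the 30 brightest, up to 4 detected and 4 undetected members of each of 50 lists, 11 fixed genes, the 10 of largest range, probes nearest the threshold and 10 with discordant probes. Not all of them are described, and which to describe was decided with their values known. Rpsa, Rps23 and the mitochondrial genes were singled out after their values were seen. Members and lists were chosen with earlier results of these data known, and the histone list was redefined after bright histone probes had been seen.

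Promoters matched 14872 of 18393 protein-coding genes. A comparison of promoter composition between detected and undetected genes was void, since 79.7% of the undetected protein-coding genes had an entry and 80% was required. It had been tried before on genes of any biotype with 1 entry (64.7% to 66.9% covered) and then on protein-coding genes, and its values were seen both times. The first-listed entry was used where a gene had several. The promoters shown were chosen with levels and motif matches known.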

Additional observations from a re-analysis of the deposited data

How the results depend on the processing

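The count of detected probes was 6072 at a detection p under 0.01 and 8867 when 2 of 3 arrays sufficed, and 7448 to 7941 with 1 array left out. The count of detected gene symbols was 4235, 5813 and 5023 to 5316 in the same order. It was 3166 with the first probe of each gene by identifier. Among the 9885 genes with 1 probe it was 1747 (17.7%), against 33.1% of genes with several probes. The share detected thus differed with the number of probes, for which the gene lists were not matched. Of the 30 brightest genes, 29 or 30 were among the 30 with 1 array left out. All 30 were with no background correction, median scaling, 8 arrays normalized together or the authors' processed values. Only 18 were when the probes of a gene were averaged. Then Actb, Dbi, Eef1a1, H2ac10, H2ac13, H2ac20, Hnrnpc, Itm2b, Mif, Rpl38, Tubb5 and Ybx1 left. Those that entered were Atp5g3, Cstb, Ctsg, Eef1g, Elane, Lamtor4, P4hb, Pgp, Rpl35, Rps12, Rps6 and Stfa1. The median level of the named genes was 8.98, and it was 9.20 with no background correction, 9.20 with 8 arrays normalized together and 9.56 in the authors' table. Single levels moved by more than their SD for 113 of 180 genes with no background correction, 146 with 8 arrays normalized together and 180 in the authors' table. With no background correction the level of the undetected gene Itgb3 went from 4.28 to 6.57, that of Cd34 from 4.39 to 6.63 and that of Syk from 4.24 to 6.52. The median SD of 0.172 became 0.0796 with no background correction, 0.102 in the authors' table and 0.0941 over all probes. At a detection p under 0.01, counts became 0 for HoxB, HoxC and HoxD genes, integrin subunits and olfactory receptors, 1 for eosinophil genes and for genes of other tissues, 2 for heat shock genes and 4 for NF-kB genes. No paired analysis was possible because no groups were compared. Signals near background limit what the 3 arrays can show: below about 110 a probe was rarely detected on all of them.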
